A study of Homo sapiens with 6 samples.

Results

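The BH3-only genes are a branch of the BCL2 family whose protein products share with the rest of that family only the short BH3 stretch. The genes described here are those with the symbols BMF, BCL2L11 (the protein BIM), BBC3 (PUMA), PMAIP1 (NOXA), BID, BAD, BIK and HRK, 8 of the 58735 genes in the deposited table, each found once. They were followed in MOLM-13, a human acute myeloid leukaemia cell line with a rearranged KMT2A gene and an activating duplication within FLT3, labelled as wild type in every library. A total of 3 cultures served as controls, described as untreated, and 3 received 8p, a synthetic compound that the design text calls an inhibitor of the RET and CDK kinases and the labels of RET and CDK8. The dose was 3.5 nM, against a stated IC50 of 7 nM, and both groups were kept for 48 hours. No solvent is named for the control cells, and all 6 libraries come from this 1 line.

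In the mitochondrial pathway of apoptosis, the guardians BCL2, BCL2L1 (BCL-XL), BCL2L2 (BCL-W), MCL1, BCL2A1 and BCL2L10 hold the effectors BAX and BAK1 in check. A BH3-only protein inserts its BH3 helix into a groove on a guardian, and some members also activate BAX and BAK1 directly. Each member relays another kind of signal, such as growth factor withdrawal, DNA damage, detachment or cleavage by a caspase, and in myeloid leukaemia this step is what BH3 mimetic drugs act on.

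What the members share is shown by the coding bases of the BH3 core, taken from the GENCODE release 29 transcripts. One transcript tagged as principal by APPRIS was read for each gene. The search pattern was a leucine, any 3 residues, a glycine, alanine or serine, an aspartate, any residue and then a phenylalanine, leucine or methionine. It matched exactly 1 place in each of the 8 proteins. The 24 bases in capitals code for those 8 residues, with flanks in lower case, all written 5′ to 3′ on the coding strand.
BMF: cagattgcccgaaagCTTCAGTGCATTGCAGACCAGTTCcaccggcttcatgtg
BCL2L11: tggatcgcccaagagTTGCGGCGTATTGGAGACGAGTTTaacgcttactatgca
BBC3: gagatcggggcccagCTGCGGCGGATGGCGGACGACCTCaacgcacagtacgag
PMAIP1: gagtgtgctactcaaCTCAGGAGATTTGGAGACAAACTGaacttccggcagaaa
BID: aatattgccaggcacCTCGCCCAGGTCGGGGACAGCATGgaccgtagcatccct
BAD: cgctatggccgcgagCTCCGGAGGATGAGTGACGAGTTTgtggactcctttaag
BIK: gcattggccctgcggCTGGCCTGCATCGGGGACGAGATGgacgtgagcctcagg
HRK: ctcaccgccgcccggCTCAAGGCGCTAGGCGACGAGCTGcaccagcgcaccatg

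Only 6 of the 24 core bases were the same in all 8 genes, and the search pattern itself set some of these. The residues it required, such as the leucine and the aspartate, fix bases of their codons in every match. The counts shared with BMF include such bases too, so they are not a measure of likeness apart from the search. BMF shared 16 of 24 with BCL2L11, 15 with BBC3, 14 each with BAD and BIK, 13 with PMAIP1, 12 with HRK and 8 with BID. Not every annotated transcript carries the core. It was present in 4 of 7 complete coding transcripts of BMF, 7 of 14 of BCL2L11, 4 of 11 of BID, 2 of 4 of BAD and 1 of 2 of PMAIP1. All 4 of BBC3 and the only 1 of BIK and of HRK held it. The counts are per gene, so transcripts with and without the core were not separated.

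The 3 control libraries held 18834611 to 23485628 counts each, and the 3 libraries with 8p 14972069 to 16210861. Mitochondrially encoded genes took 1.64% to 1.91% of control counts and 6.42% to 10.004% of 8p counts, which lowers the TPM of other genes with 8p. In the 8p group replicate 2 had the lowest mitochondrial share. Among the controls, replicate 3 had a chi-square per degree of freedom of 9.22 and 9.96 against the others, which had 3.68 between them. Replicate 2 of the 8p group stood further apart, with 19.4 and 19.3 against the others of its group, which had 2.99 between them. Without it 6 members again passed, with log2 fold changes (8p against control) of BMF at 3.84, BCL2L11 at 0.81, BBC3 at 0.76, PMAIP1 at −0.89, BID at −1.24 and BIK at −0.87. The 8 myeloid markers examined, CD33, SPI1, FLT3, CEBPA, MPO, LYZ, ITGAX and CSF3R, were all expressed and all passed the test, 6 higher and 2 lower with 8p, and their summed level was 2906 to 3269 TPM in controls and 8041 to 8125 TPM with 8p. Of 10 markers of other cell types EPCAM and HBB, among others, had no count in any library. Their summed level was 57.9 to 61.5 TPM in controls and 219 to 227 TPM with 8p. Most of it was PECAM1, which monocytes also express, at 47.6 and 211 TPM. COL1A1, a fibroblast collagen, rose from a mean of 0.542 to 31.8 CPM and the T cell gene CD3D fell from 3.01 to 0.481 CPM. The part of maturation state, RNA make-up or other cells in the members' values was not tested, and in bulk RNA fewer cells of a kind and less RNA per cell cannot be told apart.

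After 48 hours with 8p, BMF rose 14.7-fold and BCL2L11 and BBC3 rose by less than 2-fold, while BID, PMAIP1 and BIK fell. BAD did not pass the test, and HRK was below the filter on low counts. So of the 7 members tested, 3 rose and 3 fell at an adjusted p under 0.05 (edgeR quasi-likelihood test with Benjamini-Hochberg adjustment over all 13822 genes tested). Over all genes tested, 74.7% passed, 37.9% higher and 36.9% lower, so a count of 6 of 7 is near the background, as is its split. The median log2 fold change of the 7 was −0.08, beside 0.03 over all genes tested. At least 2-fold changes were found for BMF, higher, and BID, lower, where 20.9% of all genes were higher and 17.5% lower by that rule. All 3 libraries with 8p lay above the controls for the 3 members that rose and below them for the 3 that fell. Over all genes tested, 38.9% lay above, 38% below and 77% one or the other.

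**Figure D1:**
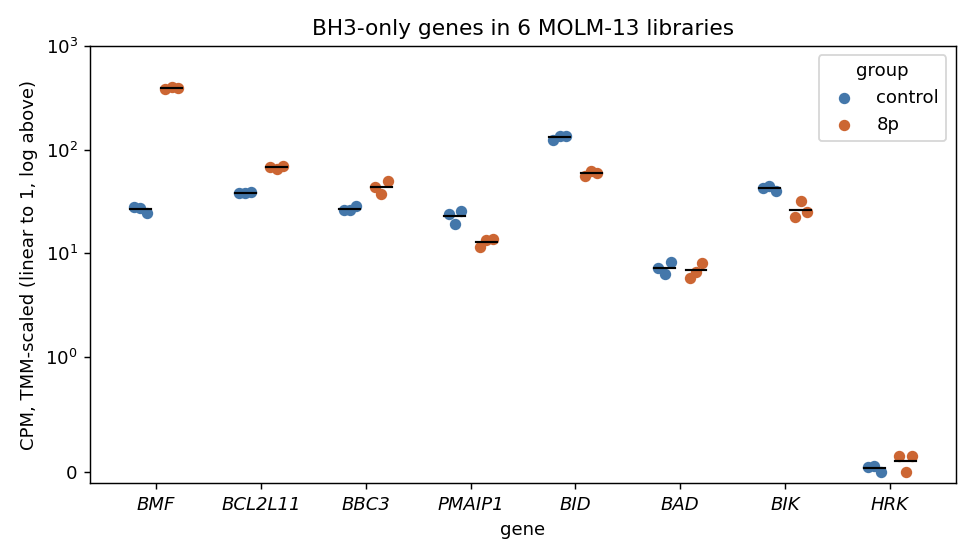
CPM with TMM scaling (linear up to 1, logarithmic above) of the 8 BH3-only genes in each library, with controls in blue, 8p in orange and the group mean as a black line. BMF went from about the level of BBC3 and PMAIP1 in controls to the highest of the members with 8p, and HRK stayed near 0 in all 6 libraries.

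Levels are given as CPM, a gene's count relative to its library's total scaled with TMM factors, unless TPM is named. BMF encodes a BH3-only protein that is held at the cell's dynein light chains and myosin motors and freed by detachment and other stress. Its gene lies on chromosome 15 from 40087890 to 40108892 on the minus strand (ENSG00000104081, GRCh38), and the printed stretch at chr15:40104186-40104239, in exon 4 of 5. BMF stood at 27.6, 27.2 and 24.6 CPM in control replicates 1 to 3 and at 379.7, 398 and 395 CPM with 8p. The treated libraries lay close together and far above every control. The means were 26.5 ± 1.63 and 391 ± 9.81 CPM (SD, n = 3), a log2 fold change of 3.88 (SE 0.08, 95% interval 3.72 to 4.04, edgeR adjusted p = 1.03e-14). By size of rise BMF was gene 184 of 13822. Its antisense partner BMF-AS1, which covers 8.46% of its exon bases, had no count in any library.

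BCL2L11 encodes BIM, which binds all main guardians and can activate BAX and BAK1, and whose level rises with FOXO activity. It lies on chromosome 2 from 111119378 to 111168447 on the plus strand (ENSG00000153094), and its printed stretch at chr2:111150088-111150141, in exon 4 of 5. The controls held 38.2, 38.4 and 38.6 CPM, and the 8p libraries 68.2, 64.8 and 69.2 CPM. The groups did not overlap, and the spread within each was small beside the difference. The rise was 0.81 on the log2 scale, or 1.76-fold (SE 0.08, 95% interval 0.65 to 0.97, edgeR adjusted p = 1.06e-07). The antisense gene MIR4435-2HG overlaps 10.9% of its exon bases and had 332 counts in controls and 89 with 8p, where BCL2L11 had 2438 and 3133. The value of BCL2L11 is therefore uncertain where the counting did not use strand.

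BBC3 encodes PUMA, a binder of all main guardians, on chromosome 19 from 47220822 to 47232766 on the minus strand (ENSG00000105327). Its printed stretch is at chr19:47226570-47226623, in exon 3 of 4. BBC3 stood at 25.97, 26.1 and 28.4 CPM in controls and at 43.1, 37.3 and 49.9 CPM with 8p. Treated replicate 2 was the lowest of its group and still above each control. The log2 fold change was 0.70 (SE 0.11, 95% interval 0.47 to 0.92, edgeR adjusted p = 2.29e-05), a 1.62-fold rise.

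BID was the member with the largest fall. It encodes a protein that caspase-8 cuts to link death receptors to mitochondria, on chromosome 22 from 17734138 to 17774770 on the minus strand (ENSG00000015475), with the printed stretch at chr22:17739406-17739459, in exon 4 of 6. Its controls were at 124, 136 and 136 CPM and its 8p libraries at 55.4, 62.4 and 58.9 CPM. Every treated value was under 63 CPM, and the groups were well apart. BID was lower by 2.24-fold, a log2 fold change of −1.16 (SE 0.08, 95% interval −1.33 to −1.003, edgeR adjusted p = 1.35e-09).

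PMAIP1 encodes NOXA, a short-lived protein that binds mainly MCL1, on chromosome 18 from 59899948 to 59904306 on the plus strand (ENSG00000141682), with the printed stretch at chr18:59902658-59902711, in exon 2 of 2. It went from 23.9, 19.3 and 25.4 CPM in controls to 11.4, 13.5 and 13.8 CPM with 8p. Control replicate 2 was the lowest control and above all treated libraries. The log2 fold change was −0.83 (SE 0.13, 95% interval −1.11 to −0.54, edgeR adjusted p = 3.87e-05).

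BIK encodes a BH3-only protein of the endoplasmic reticulum, on chromosome 22 from 43110748 to 43129712 on the plus strand (ENSG00000100290), with the printed stretch at chr22:43127701-43127754, in exon 3 of 5. Its controls held 42.9, 44.3 and 39.9 CPM and its 8p libraries 22.3, 31.8 and 25.0 CPM. Treated replicate 2 stood above the other two and below each control. BIK fell by 0.68 on the log2 scale (SE 0.11, 95% interval −0.93 to −0.44, edgeR adjusted p = 6.36e-05), and by 0.87 without that library.

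BAD, which kinases of the AKT and RSK families phosphorylate so that 14-3-3 proteins hold it, had 7.21, 6.22 and 8.22 CPM in controls and 5.79, 6.53 and 8.10 CPM with 8p. The groups overlapped. The log2 fold change was −0.08, with a 95% interval from −0.46 to 0.30 that leaves room for a change of either sign (edgeR adjusted p = 0.687). BAD lies on chromosome 11 from 64269830 to 64284704 on the minus strand (ENSG00000002330), with the printed stretch at chr11:64271613-64271666, in exon 3 of 4. On the other strand GPR137 covers 23.7% of BAD's exon bases and had 728 counts beside 771 of BAD, so the value of BAD is uncertain where the counting did not use strand. HRK, best known from neurons, lies on chromosome 12 from 116856144 to 116881441 on the minus strand (ENSG00000135116), with the printed stretch at chr12:116881161-116881214, in exon 1 of 2. It had 2 counts in the controls together and 4 with 8p, a ratio of 2.73 with an exact 95% binomial interval from 0.391 to 30.2, which covers counting error only, so no difference was detectable at this depth. With no filter beyond 1 count, its edgeR adjusted p was 0.596.

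Levels of different genes were compared as TPM, which divides counts by gene length and scales all libraries to the same sum. In controls BIK was highest at 149 ± 12.1 TPM, followed by BID at 99.2 ± 4.11, PMAIP1 at 34.1 ± 4.25, BBC3 at 28.1 ± 0.556, BCL2L11 at 19.3 ± 0.527, BMF at 16.3 ± 1.49, BAD at 14.1 ± 1.62 and HRK at 0.0147 ± 0.0128 TPM (SD, n = 3). Of neighbours in that order, only the values of BMF and BAD overlapped. With 8p BMF led at 213 ± 20.8 TPM, then BIK at 82.9 ± 22.2, BBC3 at 40.3 ± 3.67, BID at 39.4 ± 5.39, BCL2L11 at 30.0 ± 1.38, PMAIP1 at 17.2 ± 2.61, BAD at 11.8 ± 2.01 and HRK at 0.0369 ± 0.0320 TPM. Here only BBC3 and BID overlapped as neighbours. Among all protein-coding genes ranked by mean TPM, BMF moved from the 69.2 percentile in controls to the 98.1 percentile with 8p.

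A share of the members' summed TPM does not depend on how libraries are scaled to each other. BMF made up 4.74%, 4.62% and 4.18% of it in controls and 50.6%, 48.1% and 48.7% with 8p. BIK held 41.3% ± 2.21 and BID 27.6% ± 1.29 in controls, and 18.8% ± 2.73 and 9.06% ± 0.181 with 8p. The share of BCL2L11 was 5.36% ± 0.0299 and then 6.94% ± 0.507, and that of PMAIP1 9.50% ± 1.35 and then 3.93% ± 0.222. The TPM of BID was 6.14 ± 0.646 times that of BMF in controls, and with 8p that of BMF was 5.43 ± 0.202 times that of BID. These shares depend on the gene length used for each member.

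**Figure D2:**
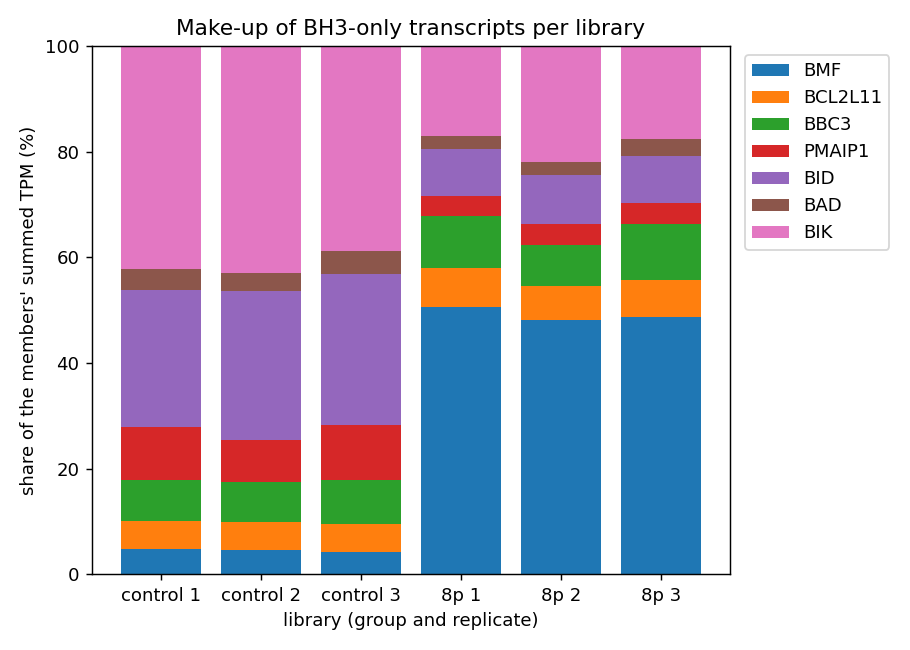
Stacked bars of each member's share of the summed TPM of the 8 BH3-only genes in each library, in percent, with HRK (at most 0.0141%) not drawn. BMF fills under 5% of each control bar and at least 48.1% of each 8p bar, while BIK and BID fill most of the controls.

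None of the 4 guardians above the count filter passed the test, and the effectors BAX and BAK1 went in opposite directions. Of all 6 guardians listed, these 4 had none past the threshold in edgeR, none at an unadjusted p under 0.05, and none with DESeq2 or limma-voom. Under some other scalings, filters and sets of libraries 1 to 3 guardians passed. The median log2 fold change of the 4 was −0.06. MCL1 stood at 204, 194 and 204 CPM in controls and 178, 216 and 181 CPM with 8p, and the groups overlapped. Its log2 fold change was −0.06 (95% interval −0.23 to 0.10, edgeR adjusted p = 0.462), but −0.19 without 8p replicate 2 (adjusted p = 0.0168). BCL2, the target of venetoclax, held 133 ± 3.80 CPM in controls and 139 ± 2.83 CPM with 8p, a log2 fold change of 0.06 (95% interval −0.08 to 0.20). BCL2 passed as higher with upper quartile scaling (0.25, edgeR adjusted p = 0.0027) and with protein-coding genes alone (0.15, adjusted p = 0.0457). BCL2L1 had −0.30 (95% interval −0.61 to 0.01) and BCL2L2 −0.06 (95% interval −0.34 to 0.22), both uncertain because of overlapping genes. On the other strand ABALON covers 43.0% of BCL2L1's exon bases, with 27 counts beside 1639 of BCL2L1. PPP1R3E covers 4.92% of BCL2L2's exon bases on the other strand, with 716 counts beside 1385 of BCL2L2. On the same strand BCL2L2-PABPN1 covers 19.4% of BCL2L2's exon bases, with 13 counts beside 1385 of BCL2L2. BCL2L1 passed when control replicate 2 (−0.42) or 8p replicate 3 (−0.42) was left out, and with no filter beyond 1 count (−0.42, edgeR adjusted p = 0.00668), where MCL1 also passed (−0.18, adjusted p = 0.0458). BCL2L10 and BCL2A1 were below the count filter. BCL2L10 had 0 counts in every control and 14, 4 and 10 counts in 8p replicates 1 to 3. It passed as higher with no filter (edgeR adjusted p = 5.86e-05) and without control replicate 1 (adjusted p = 0.00209), control replicate 2 (0.00199), control replicate 3 (0.00212) or 8p replicate 2 (6.28e-05), the settings in which it was tested. BCL2A1 had 14, 11 and 7 counts in controls and 4, 3 and 0 with 8p, and with no filter its edgeR adjusted p was 0.0839. Of the effectors, BAX rose by 0.40 (95% interval 0.25 to 0.55, edgeR adjusted p = 9.65e-05), from 135 ± 7.63 to 179 ± 9.77 CPM. BAK1 fell by 0.72 on the log2 scale, from 93.5 ± 3.70 to 56.9 ± 4.34 CPM. BOK was below the count filter.

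Summed over genes, the members' TPM was 1.61, 1.70 and 1.62 times that of the guardians in control replicates 1 to 3, and 2.30, 2.23 and 2.43 times with 8p. Without BMF the ratio went the other way, from 1.57 ± 0.0434 to 1.18 ± 0.0573 (SD, n = 3). The groups did not overlap in either form, and BMF alone set the direction of the first. These ratios are of transcript levels, not of proteins.

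**Figure D3:**
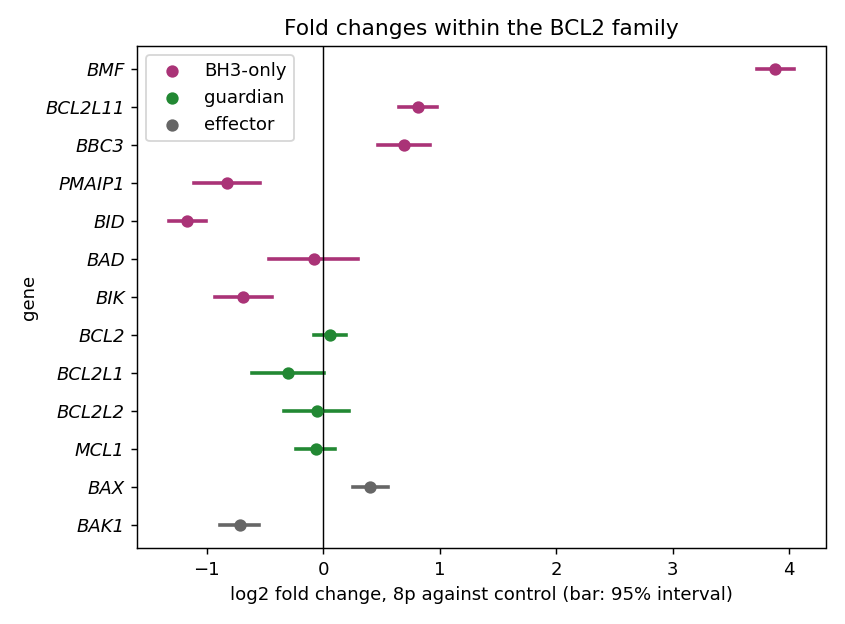
Log2 fold change of 8p against control with its 95% interval for the tested BH3-only genes, guardians and effectors. BMF stands at 3.88, the other BH3-only genes lie between −1.16 and 0.81, and the intervals of all 4 guardians include 0.

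A BH3-like stretch also occurs in proteins outside the classical group. Of 6 such genes, 5 could be tested, of which 2 rose and 3 fell (median log2 fold change −0.39). Among all genes tested 37.9% rose and 36.9% fell, with a median of 0.03. BNIP3L (NIX), a receptor for mitophagy, held 52.6 ± 2.17 CPM in controls and 178 ± 4.17 CPM with 8p, a rise by 1.76 (log2), and its relative BNIP3 had −0.39, a call lost with upper quartile scaling (adjusted p = 0.0584). BNIP1, a SNARE of the endoplasmic reticulum, and HUWE1, a ubiquitin ligase for MCL1, fell, with log2 fold changes of −1.42 and −0.48. The autophagy gene BECN1 rose by 0.32, a value that is uncertain because PSME3 overlaps it on the other strand, and the call was lost with no filter on low counts (adjusted p = 0.0623).

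Genes for proteins that tether BH3-only members were mostly lower. Of 9 genes for dynein light chains and 14-3-3 proteins 8 could be tested, and 7 fell and none rose. The median of the 8 was −0.66 (log2 fold change), beside 0.03 over all genes tested, of which 36.9% fell and 37.9% rose. DYNLL2, the light chain that binds BMF, held 85.4 ± 2.20 CPM in controls and 53.4 ± 2.39 CPM with 8p, and fell by 0.68 on the log2 scale (edgeR adjusted p = 6.23e-07). DYNLL1, which binds BIM, fell by 0.48. The 14-3-3 genes YWHAQ, YWHAG and YWHAE, whose products can hold BAD, fell, with log2 fold changes of −1.78, −1.53 and −1.46. YWHAH and YWHAB fell less, with −0.65 and −0.21. YWHAZ, which had the highest CPM of these genes in both groups, was not called (−0.11, edgeR adjusted p = 0.173). It held 1328 ± 48.8 CPM in controls and 1230 ± 46.5 CPM with 8p. With upper quartile scaling, and with protein-coding genes alone, 6 of the 8 fell.

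Of 14 genes for enzymes that modify members 4 rose and 5 fell (median −0.03). The shares over all genes tested were 37.9% and 36.9% (median 0.03). CASP8, whose product cuts BID, held 28.7 ± 2.20 CPM in controls and 56.2 ± 1.23 CPM with 8p, and rose by 0.97 on the log2 scale. PIM1 and PIM2, kinases that phosphorylate BAD, fell, with log2 fold changes of −1.72 and −0.92. AKT2 fell by 0.67. Among the RSK kinases RPS6KA2 rose by 2.87 and RPS6KA1 by 0.34 on the log2 scale. MAPK3, a kinase gene of the same list, had a log2 fold change of −0.01 (95% interval −0.20 to 0.18), which changed sign with upper quartile scaling.

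Of 14 transcription regulators known to act on members 7 rose and 5 fell, and their median was 0.20 (log2 fold change). Among all genes tested 37.9% rose and 36.9% fell, with a median of 0.03. All 3 FOXO genes listed rose, factors that activate BCL2L11 and BBC3 and are kept out of the nucleus by AKT. FOXO3 went from 51.2 ± 1.09 to 76.2 ± 3.19 CPM and FOXO4 from 14.6 ± 1.84 to 25.0 ± 0.917 CPM, while FOXO1 stayed low, at 0.309 ± 0.0993 and 2.46 ± 0.725 CPM. SMAD3 and SMAD4, which carry TGF-beta signals, rose by 1.45 and 0.67 on the log2 scale. JUN, an AP-1 subunit, rose by 0.94, at 1.88 ± 0.347 and 3.60 ± 0.582 CPM. E2F1, MYC and ATF4 fell, with log2 fold changes of −3.14, −2.35 and −0.79. TP73, an activator of BBC3, had −2.05 and DDIT3 (CHOP) 1.11, both uncertain because of overlapping genes on the other strand.

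Downstream, of 9 genes for the apoptosome and its caspases 2 rose and 4 fell (median −0.27). The shares over all genes tested were 37.9% and 36.9% (median 0.03). The gene of cytochrome c, CYCS, held 420.0 ± 42.0 CPM in controls and 84.7 ± 2.29 CPM with 8p, and fell. The initiator caspase gene CASP9 rose by 1.04. HTRA2, counted among the 4, is uncertain because AUP1 overlaps it on the other strand. XIAP, an inhibitor of caspases, rose by 0.44 on the log2 scale.

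**Figure D4:**
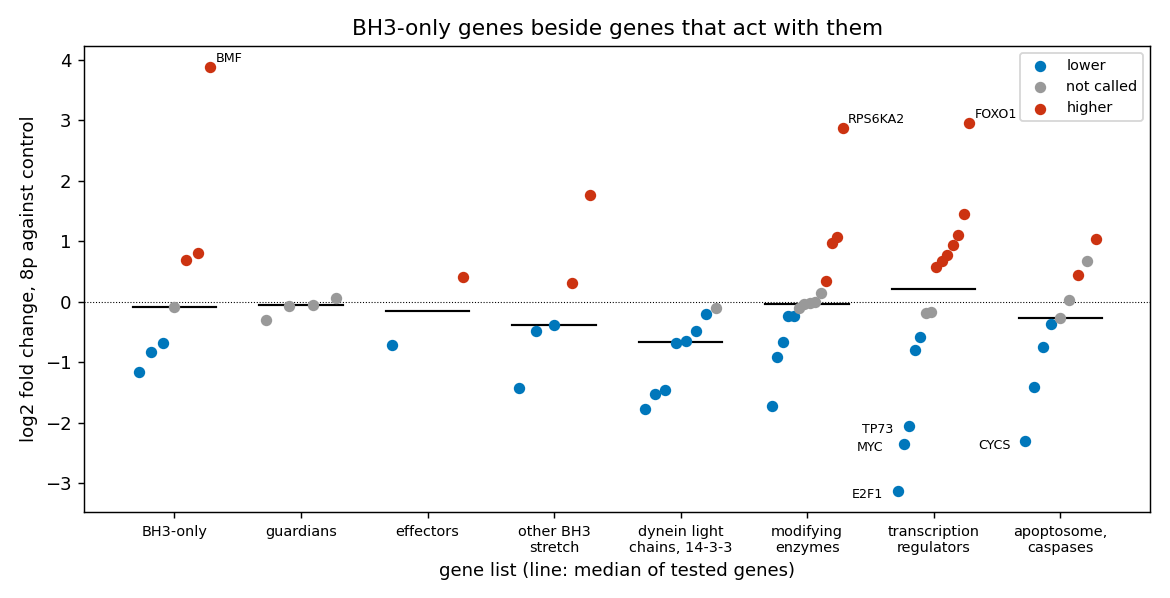
Log2 fold change of each tested gene in 8 lists, with genes higher with 8p in red, lower in blue, not called in grey and the list median as a line. BMF lies above every other gene drawn, none of the 4 guardians drawn passed, and no gene for dynein light chains or 14-3-3 proteins rose.

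Over the 6 libraries, the protein-coding genes whose centred log2 CPM values lay nearest to those of BMF by Euclidean distance were NAV1 (0.168), DTX4 (0.185), CSF1R (0.207), CD36 (0.236) and PCP2 (0.247). DTX4, which encodes a ubiquitin ligase, went from 20.4 ± 1.93 to 331 ± 4.50 CPM, and the receptor gene CD36 from 13.1 ± 1.12 to 177 ± 0.835 CPM. The 6 libraries form only 2 groups, so the distance is mostly set by how near a gene's fold change is to that of BMF. Among the members, BCL2L11 was nearest to BMF at a distance of 3.77.

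The sequence just before the start site is shown for BMF, the member with the largest change. The 250 bases lie at chr15:40108880-40109129 on the minus strand and are written 5′ to 3′ from the RefSeq promoter table (GRCh38.p14).
BMF promoter: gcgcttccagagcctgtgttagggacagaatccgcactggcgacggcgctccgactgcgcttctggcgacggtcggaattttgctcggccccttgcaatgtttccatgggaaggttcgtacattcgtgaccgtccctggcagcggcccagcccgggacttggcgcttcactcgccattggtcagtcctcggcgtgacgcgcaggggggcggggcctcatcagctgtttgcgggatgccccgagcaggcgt

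This stretch is 65.2% G and C, where the median over all promoter windows of that table is 58%. Windows were found for 7 of the 8 members. They were searched on both strands for the FOXO core GTAAACA, the E-box CACGTG bound by MYC and its partners, and the cyclic AMP response element TGACGTCA. The FOXO core occurs in 2.98% of all windows of that length, the E-box in 6.34% and the response element in 1.65%. Counted per gene, with a match in any of its windows, the shares are 3.66%, 7.73% and 2.03%. The window of BCL2L11 holds 1 FOXO core, in capitals below, which lies at chr2:111120680-111120708 on the plus strand and starts 223 bases before the start site.
BCL2L11 promoter site: gagttactccgGTAAACAcgccagggacg

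An E-box was found in the window of BBC3, 232 bases before its start, and in 2 of the 5 windows of BID, both times the same genomic site seen from another start. None of the 3 motifs was found in the windows of BMF. A match is only a run of letters, and binding was not measured.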

How the data were processed

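Gene counts of 6 mRNA libraries were used. The authors deposited whole-number read counts per gene, not normalized, with gene symbol, position and length. Per the submitters' processing notes, the build was hg38 and the tools included edgeR 3.22.5, DESeq2 1.20.0, featureCounts 1.5.0-p3 and HISAT2 2.0.5. No source used here gives the strand setting. All 58735 identifiers and positions equalled GENCODE release 29. The gene length column is the authors' deposited number of bases, treated as other information.

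Counts were tested in R 4.3.3 with edgeR 4.0.16 (quasi-likelihood test, TMM factors, filterByExpr, group as the only term), with Benjamini-Hochberg adjustment over 13822 genes. A standard error is the log2 fold change divided by the square root of F, and intervals use the test's degrees of freedom. No spike-in was used in scaling, so a fold change is relative to all other RNA. The members and lists were chosen with earlier results of these data known. Named genes were the members, genes of lists drawn up by role (the examples among them picked after their values were seen), and the 5 protein-coding genes nearest to BMF. DESeq2 1.42.0, limma-voom (limma 3.58.1), other scalings and filters, the replicate block, libraries left out and other thresholds were alternatives. Some genes counted in the lists are not reported here by name. The script was tested on simulated data. DIABLO, whose symbol has 2 identifiers, was matched by its current one. The design text describes the cultures as independent biological replicates.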

Additional observations from a re-analysis of the deposited data

How the results depend on the processing

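All 6 calls of members held in number and direction under every alternative but the minimum fold of 2, where 2 members passed, BMF and BID. Over its alternatives the log2 fold change of BMF ran from 3.77 to 4.07. BAD, which was not called, changed sign with upper quartile factors (0.11) and with protein-coding genes alone (0.0033). Upper quartile factors moved the median of all genes to a log2 fold change of 0.22, with 6240 genes higher and 4258 lower. With them BCL2L2 (0.13), MCL1 (0.12) and MAPK3 (0.18) changed sign. With protein-coding genes alone so did BCL2L2 (0.030), MCL1 (0.021) and MAPK3 (0.079). BCL2 was −0.054 with no filter beyond 1 count. MAPK3 (0.026) changed sign with a minimum of 1 CPM in 3 samples. MAPK3 was 0.0030 with total counts only and from −0.072 to 0.00049 with 1 library left out, the highest without 8p replicate 1. Calls of guardians numbered 1 with upper quartile factors, 3 with no filter, 1 with protein-coding genes alone and 0 to 2 with 1 library left out, where BCL2L10 enters the test without control replicate 1, 2 or 3 or 8p replicate 2. The cause was not tested. With the minimum fold of 2, 5304 genes of all passed, 0 effectors, 2 other genes with a BH3-like stretch, 3 tethers, 3 modifying enzymes, 6 transcription regulators and 3 apoptosome genes.

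As CPM without length, BMF made up 8.94% of the members in controls and 64.4% with 8p, and the ratio of members to guardians was 0.816 and 1.70. With 1 library left out, the share of BMF was 4.40% to 4.68% (controls) and 48.4% to 49.6% (8p), and the ratio 1.62 to 1.66 (controls) and 2.26 to 2.36 (8p). With the replicate block, 10090 genes and 6 members passed, and the numbers did not pair the libraries (correlations −0.0071, −0.018 and −0.043). Depth limits HRK, BOK, BCL2A1 and BCL2L10, which were below the main count filter and were tested with no filter, where BCL2L10 alone of them passed.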
